A study of Mus musculus with 4 samples.

Results

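Matrix metalloproteinases (MMPs) and their tissue inhibitors (TIMPs) were examined in dorsal skin treated with imiquimod (IMQ) cream. The 10 genes were chosen by name, with earlier results of these data known. They are *Mmp1b*, *Mmp2*, *Mmp3*, *Mmp10*, *Mmp12*, *Mmp13*, *Mmp14*, *Timp1*, *Timp2* and *Timp3*. All of them were among the 24346 gene symbols of the deposited tables. The samples were 4 RNA sequencing libraries of C57BL/6 mice, aged 8 weeks when the diet began. Mice of the Cont-IMQ group (2 libraries) received the NASH diet, which is rich in fat, cholesterol, sucrose and bile salt, over 3 weeks, followed by 1 day of IMQ cream. Mice of the 7KC-IMQ group (2 libraries) received the same diet with added 7-ketocholesterol (7KC), an oxidized cholesterol, and the same cream. All 4 libraries therefore share the NASH diet and IMQ, and skin without either was not analysed here. The comparison is of IMQ-treated skin between mice fed the NASH diet with and without 7KC, which was fed before the cream. Without skin that had no IMQ, a difference present before the cream cannot be told apart from a different response to it. Levels are given in FPKM, fragment counts scaled to the length of a gene's exons and to the depth of the library, so that levels can be compared between genes.

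MMPs are zinc-dependent endopeptidases that cleave the extracellular matrix. Most are secreted as inactive proenzymes, and TIMPs block them by binding to the active site. In skin, fibroblasts are a main source of *Mmp2* (gelatinase A), *Mmp14* (the membrane-bound enzyme that activates proMMP2) and *Timp2*. *Mmp3* and *Mmp10* encode stromelysins, *Mmp13* encodes an interstitial collagenase, *Mmp12* encodes the elastase of macrophages, and *Mmp1b* is one of a pair of mouse relatives of the human collagenase gene *MMP1*. Inflammatory cytokines are well known to induce the stromelysins, the collagenases and *Timp1*, in part through AP-1, a dimer of Fos and Jun proteins.

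Of the 7 MMP genes, 5 lie near each other on chromosome 9 of GRCm38 (the assembly also called mm10), within 238 kb from 7272514 to 7510240, in the order *Mmp13*, *Mmp12*, *Mmp1b*, *Mmp3* and *Mmp10*. All 5 have a RefSeq promoter (250 bases before to 50 bases after the transcript start) that holds the AP-1 letters TGANTCA, which read the same on both strands. *Mmp14*, *Timp1*, *Timp2* and *Timp3* have no such match, *Mmp2* has no entry in the table, and 7.81% of 32851 mouse promoters hold the letters. These matches describe letters in the window and were not tested as sites. The 5 neighbors are shown because 4 of them (all but *Mmp10*) were, among the genes chosen, the MMP genes tested whose groups did not overlap. Over all genes tested, 46.8% did not overlap (23.9% higher and 22.9% lower). *Mmp1b* was too low for a difference to be detectable, and *Mmp10*, which holds the same letters, was too low to be tested. Other MMP genes lie within or beside this span, and whether their promoters hold the letters is not reported here. Of these, *Mmp1a* (7464141 to 7476869) overlapped between the groups. *Mmp8* (7558456 to 7568485) was higher and *Mmp27* (7571396 to 7581885) was lower without overlap. A link between the letters and the differences was not tested. Each stretch ends shortly before the start, with the AP-1 letters in capitals (RefSeq, GRCm38.p6, each written 5′ to 3′ on the strand of the gene).
*Mmp13*, chr9:7272383-7272492, plus strand: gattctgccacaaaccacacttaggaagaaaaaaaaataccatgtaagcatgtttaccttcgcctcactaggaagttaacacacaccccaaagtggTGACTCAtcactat
*Mmp12*, chr9:7347243-7347352, plus strand: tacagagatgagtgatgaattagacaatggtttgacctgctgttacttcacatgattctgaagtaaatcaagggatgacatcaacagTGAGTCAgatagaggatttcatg
*Mmp1b*, chr9:7388048-7388157, minus strand: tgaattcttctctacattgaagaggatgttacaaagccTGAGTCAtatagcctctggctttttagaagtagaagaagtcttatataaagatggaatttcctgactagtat
*Mmp3*, chr9:7445691-7445800, plus strand: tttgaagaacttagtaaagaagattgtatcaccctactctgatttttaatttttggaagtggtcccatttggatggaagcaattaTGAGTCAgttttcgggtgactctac
*Mmp10*, chr9:7502211-7502320, plus strand: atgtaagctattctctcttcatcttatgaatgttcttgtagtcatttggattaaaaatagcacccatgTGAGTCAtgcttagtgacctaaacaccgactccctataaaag
The letters begin 35 bases before the start in *Mmp13*, 44 in *Mmp12*, 93 in *Mmp1b*, 46 in *Mmp3* and 63 in *Mmp10*. *Mmp12* has another listed start without a match. *Timp1* on chromosome X is shown in the same way because it had the lowest p-value of the 9 genes tested, here with the ETS core letters AGGAAG in capitals, which 35.4% of promoters hold on either strand and 7 of the 9 genes with a promoter hold as well.
*Timp1*, chrX:20870035-20870144, plus strand: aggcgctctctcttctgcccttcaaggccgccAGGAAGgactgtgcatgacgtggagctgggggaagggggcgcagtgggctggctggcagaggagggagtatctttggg

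Before the comparison, the libraries were examined for differences that the groups do not explain. The depth, estimated from the steps between low values, was between 15000000 and 16290000 mapped reads. The hair follicle markers separated the Cont-IMQ libraries from each other, with a summed level of 118 FPKM in replicate 1 and 1528 FPKM in replicate 2, against 443 and 391 FPKM in the 7KC-IMQ libraries. Cont-IMQ replicate 2 was also the lowest of the 4 libraries in *Col1a1* (797 and 471 FPKM in Cont-IMQ skin, 819 and 665 FPKM in 7KC-IMQ skin) and in *Col3a1* (560 and 311 FPKM against 490 and 455 FPKM), which encode fibrillar collagens of the dermis. Markers of the labelled tissue were abundant, as 8 epidermal keratinocyte markers summed to 14855 to 22207 FPKM and 10 fibroblast markers to 2686 to 3629 FPKM per library, and 8 skeletal muscle markers summed to 6019 to 7444 FPKM. Results that rest on Cont-IMQ replicate 2 are given with and without it.

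The level of the 10 genes spanned more than 3 orders of magnitude. The mean over the 4 libraries was 223 ± 35.9 FPKM (SD, n = 4) for *Mmp2*, 136 ± 14.6 FPKM for *Mmp14*, 122 ± 14.7 FPKM for *Timp2* and 102 ± 36.1 FPKM for *Mmp3*. These were followed by *Timp3* at 41.6 ± 8.47 FPKM and *Timp1* at 28.6 ± 14.0 FPKM. Much lower were *Mmp13* at 2.28 ± 0.714 FPKM, *Mmp12* at 2.13 ± 1.33 FPKM, *Mmp1b* at 0.490 ± 0.222 FPKM and *Mmp10* at 0.0948 ± 0.0414 FPKM. The ranges of neighbors in this order overlapped between *Mmp14* and *Timp2*, *Timp2* and *Mmp3*, *Timp3* and *Timp1*, *Mmp13* and *Mmp12*, and *Mmp12* and *Mmp1b*. *Mmp2* was above *Mmp14* in all 4 libraries, whereas *Timp3* was above *Timp1* in both Cont-IMQ libraries and below it in both 7KC-IMQ libraries. Likewise *Timp2* was above *Mmp3* in both Cont-IMQ libraries and below it in both 7KC-IMQ libraries.

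**Figure D1:**
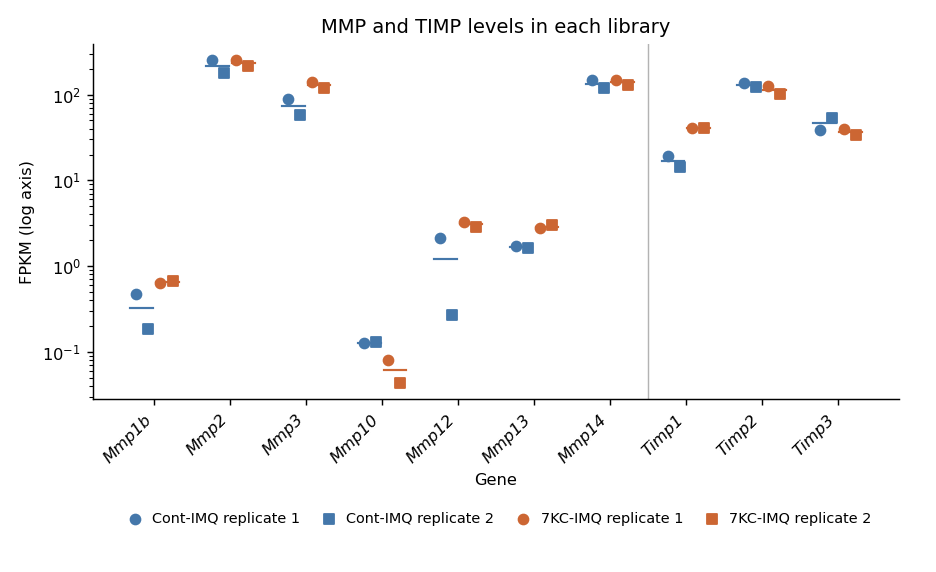
FPKM (log axis) of the 7 MMP and 3 TIMP genes in each of the 4 libraries, with blue for Cont-IMQ, orange for 7KC-IMQ, circles for replicate 1, squares for replicate 2 and short lines for the group means (n = 2). The 7KC-IMQ points of *Timp1*, *Mmp3*, *Mmp12*, *Mmp13* and *Mmp1b* lie above both Cont-IMQ points, and Cont-IMQ replicate 2 stands far below the other libraries in *Mmp12*.

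Of the 10 genes, 9 passed the filter on low values and were compared by limma on log2(FPKM + 1) together with all 15896 genes tested. *Mmp10* did not pass it. In 5 of the 9 (*Timp1*, *Mmp3*, *Mmp12*, *Mmp13* and *Mmp1b*), both 7KC-IMQ libraries were above both Cont-IMQ libraries, in 0 they were below, and in 4 the groups overlapped. Over all genes tested, 46.8% had groups that did not overlap (23.9% higher and 22.9% lower). After adjustment, 0 of the 9 passed a threshold of 0.05 in limma (lowest adjusted p-value 0.331, highest 0.859), as against 0.00629% of all genes. At an unadjusted p-value under 0.05, 3 of the 9 were higher (*Timp1*, *Mmp3* and *Mmp13*) and 0 were lower, against 7.5% and 5.47% of all genes. The genes were chosen with earlier results of these data known, so these counts cannot show an excess over all genes. The median log2 fold change was 0.43 over the 6 MMP genes tested and -0.20 over the 3 TIMP genes, against -0.01 over all genes tested. The MMP median lies between *Mmp1b* (0.33), which was too low for a difference to be detectable, and *Mmp13* (0.54). The TIMP median is the value of *Timp2*, while *Timp1* was at 1.25 and *Timp3* at -0.30. Without Cont-IMQ replicate 2, the MMP median lies lower, between *Mmp1b* (0.17) and *Mmp12* (0.38), with *Mmp2* at -0.12 and *Mmp14* at -0.09. The TIMP median is then the value of *Timp3* (-0.07). A two-sided exact permutation test of 2 against 2 libraries cannot give a p-value below 0.333. As nothing in the labels says that libraries of a group came from separate mice, the p-values may measure technical spread only. In whole skin, more cells of a type and more RNA per cell cannot be told apart.

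**Figure D2:**
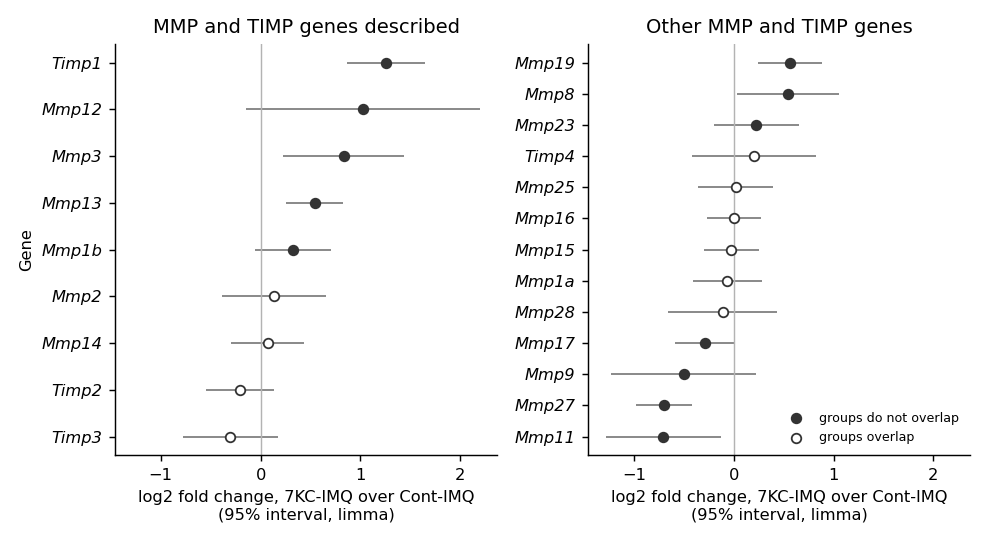
Log2 fold change of 7KC-IMQ over Cont-IMQ (on the log2(FPKM + 1) scale) with its 95% interval from limma, for the 9 genes tested on the left and for 13 other MMP and TIMP genes on the right. Filled points mark genes whose groups do not overlap (n = 2 per group), and *Timp1* stands highest at 1.25.

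*Timp1* (ENSMUSG00000001131.11, chromosome X of GRCm38, 20870166 to 20874735), the inducible inhibitor of most MMPs, had the largest log2 fold change of log2(FPKM + 1) among the 9 genes tested, while *Mmp12* had the larger ratio of means (2.55) and the larger value with a pseudocount of 0.1 (1.80 against 1.30). It had 19.0 and 14.2 FPKM in Cont-IMQ skin (in replicate order) against 40.4 and 40.8 FPKM in 7KC-IMQ skin. Both 7KC-IMQ libraries were high and close to each other, and the groups did not overlap. The mean was 16.6 ± 3.43 FPKM (SD, n = 2) against 40.6 ± 0.263 FPKM, a ratio of 2.45, and 2.13 with Cont-IMQ replicate 1 alone as the control. The log2 fold change was 1.25 (standard error 0.15, 95% interval 0.86 to 1.65, unadjusted p = 5.8e-04, limma adjusted p = 0.331), and dropping 1 library at a time gave 1.05 to 1.46. *Timp1* lies within *Syn1*, a gene of the opposite strand, and none of its 75-base windows occurs in a transcript of another gene.

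*Timp2* (ENSMUSG00000017466.9, chromosome 11, 118301069 to 118355740), which besides inhibiting MMP2 takes part in its activation by MMP14, had 137 and 123 FPKM in Cont-IMQ skin, compared with 125 and 101 FPKM in 7KC-IMQ skin. The groups overlapped, and 7KC-IMQ replicate 2 was the lowest library. Its log2 fold change was -0.20 (95% interval -0.54 to 0.14, limma adjusted p = 0.557). *Timp3* (ENSMUSG00000020044.13, chromosome 10, 86300372 to 86349506), an inhibitor bound to the matrix that also blocks ADAM17, had 38.8 and 53.8 FPKM in Cont-IMQ skin, compared with 39.8 and 34.2 FPKM in 7KC-IMQ skin. Only Cont-IMQ replicate 2 stood apart, on the high side, and the groups overlapped. The log2 fold change of *Timp3* was -0.30 (95% interval -0.78 to 0.17, limma adjusted p = 0.537), and it was -0.07 without Cont-IMQ replicate 2 and -0.53 without Cont-IMQ replicate 1. Of the 75-base windows of *Timp3*, 20.6% also occur in transcripts of *Syn3*, which surrounds it on the opposite strand.

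The makeup of the TIMP transcripts differed between the groups, whereas their summed level overlapped. The summed level of the 3 genes was 194 and 191 FPKM in Cont-IMQ skin, compared with 205 and 176 FPKM in 7KC-IMQ skin. *Timp1* made up 9.79% and 7.40% of it in the Cont-IMQ libraries and 19.7% and 23.1% in the 7KC-IMQ libraries. The share of *Timp2* was 70.3% and 64.5% against 61.0% and 57.5%. These sums and shares describe the libraries and were not tested.

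**Figure D3:**
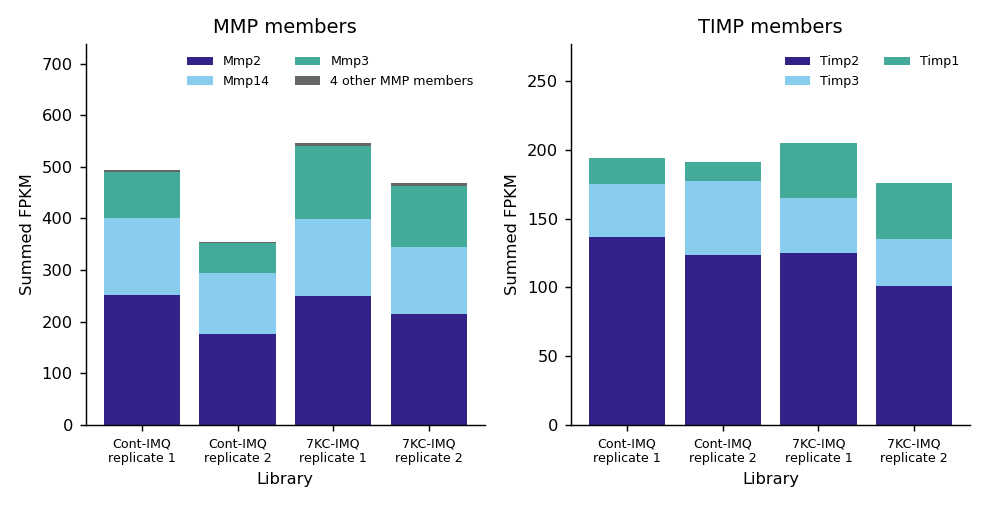
Summed FPKM of the MMP genes (left) and of the TIMP genes (right) in each library, as stacked bars from 0, with the 4 other MMP genes (*Mmp1b*, *Mmp10*, *Mmp12* and *Mmp13*) drawn together in gray. The *Timp1* part is 19.0 and 14.2 FPKM in Cont-IMQ and 40.4 and 40.8 FPKM in 7KC-IMQ, while the TIMP bars stay between 176 and 205 FPKM, and the *Mmp3* part is larger in both 7KC-IMQ libraries.

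*Mmp3* (ENSMUSG00000043613.8, chromosome 9, 7445822 to 7455975), a stromelysin of broad specificity, was the only abundant MMP gene whose groups did not overlap. It had 89.7 and 58.0 FPKM in Cont-IMQ skin (in replicate order) against 141 and 118 FPKM in 7KC-IMQ skin, from an estimated 2186, 1403, 3685 and 2846 reads. The gap between the Cont-IMQ libraries was about as wide as that between Cont-IMQ replicate 1 and the nearest 7KC-IMQ library. The mean was 73.8 ± 22.4 FPKM (SD, n = 2) against 130 ± 16.1 FPKM. This gave a log2 fold change of 0.83 (standard error 0.23, 95% interval 0.23 to 1.44, unadjusted p = 0.0175, limma adjusted p = 0.356). Without Cont-IMQ replicate 2 it was 0.52, and without Cont-IMQ replicate 1 it was 1.14. Its windows are shared with *Mmp10* to 3.76%.

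*Mmp2* (ENSMUSG00000031740.8, chromosome 8, 92827291 to 92853420) had 252 and 176 FPKM in Cont-IMQ skin, compared with 250 and 214 FPKM in 7KC-IMQ skin. *Mmp14* (ENSMUSG00000000957.11, chromosome 14, 54431612 to 54445364) had 148 and 118 FPKM in Cont-IMQ skin, compared with 149 and 130 FPKM in 7KC-IMQ skin. In both genes the groups overlapped, Cont-IMQ replicate 2 was the lowest library, and Cont-IMQ replicate 1 was close to 7KC-IMQ replicate 1. The log2 fold change of *Mmp2* was 0.13 (95% interval -0.39 to 0.66, limma adjusted p = 0.804) and turned to -0.12 without Cont-IMQ replicate 2. That of *Mmp14* was 0.07 (95% interval -0.30 to 0.44, limma adjusted p = 0.859), and it was -0.09 without Cont-IMQ replicate 2, -0.02 without 7KC-IMQ replicate 1 and -0.02 after quantile normalization. These intervals do not show that the levels were equal.

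Ratios within a library, chosen after the values were seen, are given as a description. The ratio of *Mmp3* to *Mmp2* was 0.356 and 0.329 in the Cont-IMQ libraries and 0.565 and 0.554 in the 7KC-IMQ libraries, so that both replicates of a group were close while the groups were apart. The ratio of *Mmp3* to *Col1a1* was 0.112 and 0.123 against 0.173 and 0.178. The ratio of *Mmp2* to *Col1a1* was 0.316 and 0.375 against 0.306 and 0.322, with overlap between the groups, whereas that of *Mmp2* to *Timp2* was 1.85 and 1.43 against 2.00 and 2.11, without overlap. *Mmp2* and *Mmp14* together made up 80.9% and 83.0% of the summed MMP level in the Cont-IMQ group and 72.9% and 73.3% in the 7KC-IMQ group, and *Mmp3* made up 18.1% and 16.3% against 25.8% and 25.3%. The summed MMP level was 494 and 355 FPKM against 547 and 469 FPKM, and the groups overlapped. The sum of MMP levels over the sum of TIMP levels was 2.54 and 1.85 in the Cont-IMQ group and 2.66 in both 7KC-IMQ libraries, without overlap, although only Cont-IMQ replicate 2 stood far apart. The ratio of *Mmp3* to *Timp1* was 4.71 and 4.09 against 3.50 and 2.91, with no overlap between the groups.

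*Mmp13* (ENSMUSG00000050578.10, chromosome 9, 7272514 to 7283331), the collagenase that opens fibrillar collagen, was low but even within the groups. It had 1.73 and 1.62 FPKM in Cont-IMQ skin, compared with 2.75 and 3.04 FPKM in 7KC-IMQ skin, from an estimated 65, 60, 111 and 113 reads. The Cont-IMQ libraries lay close together and well below both 7KC-IMQ libraries. The mean was 1.68 ± 0.0813 FPKM (SD, n = 2) against 2.89 ± 0.203 FPKM, a ratio of 1.73. From the pooled estimated reads (125 against 224), the 95% interval of this ratio was 1.39 to 2.18 (exact binomial, counting error only). The log2 fold change was 0.54 (standard error 0.11, unadjusted p = 0.00547, limma adjusted p = 0.352) and stayed between 0.49 and 0.59 with each library left out in turn. None of its windows is shared with another gene.

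*Mmp12* (ENSMUSG00000049723.14, chromosome 9, 7344381 to 7369499) depended most on a library. It had 2.13 FPKM in Cont-IMQ replicate 1 and 0.269 FPKM in Cont-IMQ replicate 2, and 3.26 and 2.88 FPKM in the 7KC-IMQ libraries. Reads were not estimated for *Mmp12*, which has 7 annotated transcripts. How near the floor its level in Cont-IMQ replicate 2 lies is therefore not known. The groups did not overlap, but the difference between the Cont-IMQ libraries exceeded that between Cont-IMQ replicate 1 and either 7KC-IMQ library. Its log2 fold change was 1.03 (standard error 0.44, 95% interval -0.14 to 2.197, limma adjusted p = 0.428). It was 0.38 without Cont-IMQ replicate 2 and reached 1.68 without Cont-IMQ replicate 1. Of 10 macrophage markers, 0 were higher and 2 were lower without overlap, against 23.9% and 22.9% of all genes, and their summed level was 762 and 958 FPKM in Cont-IMQ skin, compared with 735 and 811 FPKM in 7KC-IMQ skin.

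*Mmp1b* (ENSMUSG00000041620.8, chromosome 9, 7368239 to 7388047, minus strand) had 0.471 and 0.183 FPKM in Cont-IMQ skin, compared with 0.644 and 0.662 FPKM in 7KC-IMQ skin. These levels rest on an estimated 9 and 3 reads against 13 and 12 reads, and 3 reads is taken as the floor. From 12 against 25 pooled reads, the ratio of the groups was 2.02 with a 95% interval of 0.978 to 4.41 (exact binomial, counting error only), so a difference was not detectable at this depth. The log2 fold change was 0.33 (limma adjusted p = 0.434) and 0.17 without Cont-IMQ replicate 2. The study displayed *Mmp1b* from these same libraries, so its direction is not independent evidence. Of its windows, 12.8% also occur in transcripts of *Mmp1a* or *Mmp12*, and the end of the gene overlaps *Mmp12* on the opposite strand. *Mmp1a*, the other relative of *MMP1*, had 0.286 and 0.0721 FPKM against 0.10 and 0.145 FPKM.
*Mmp10* (ENSMUSG00000047562.3, chromosome 9, 7502352 to 7510240) had 0.128 and 0.129 FPKM in Cont-IMQ skin, compared with 0.0795 and 0.0431 FPKM in 7KC-IMQ skin. These correspond to an estimated 3, 3, 2 and 1 reads. All are at or under the floor, so no fold is given for *Mmp10*.

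Cont-IMQ replicate 2 was the lowest of the 4 libraries in 7 of the 9 genes tested (all but *Timp2* and *Timp3*), as it was in 26.6% of all genes tested. When 1 library was dropped at a time, the number of the 9 genes with unadjusted limma p-values under 0.05 was 6 without Cont-IMQ replicate 1 (14.7% of all genes then), 3 without Cont-IMQ replicate 2 (14.1%), 2 without 7KC-IMQ replicate 1 (7.18%) and 3 without 7KC-IMQ replicate 2 (3.89%). *Timp1* and *Mmp13* were among them each time. Of the 6, *Timp3* was lower and the others (with *Mmp1b*, *Mmp3* and *Mmp12*) were higher. *Mmp3* was missing without 7KC-IMQ replicate 1.

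**Figure D4:**
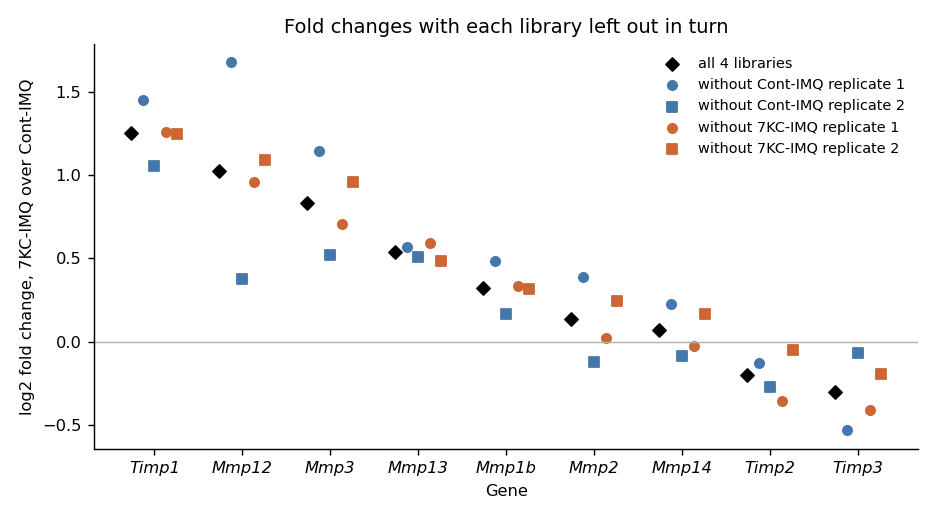
Log2 fold change of 7KC-IMQ over Cont-IMQ for the 9 genes tested, with all 4 libraries (black) and with each library left out in turn (blue for a Cont-IMQ library left out, orange for a 7KC-IMQ library). *Timp1* stays between 1.05 and 1.46 and *Mmp13* between 0.49 and 0.59, whereas *Mmp12* spreads from 0.38 to 1.68 and *Mmp2* and *Mmp14* lie on both sides of 0.

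Of 17 other MMP and TIMP genes, 13 were tested, of which 2 were higher (*Mmp8* and *Mmp19*) and 2 lower (*Mmp11* and *Mmp27*) by limma with unadjusted p-values under 0.05, against 7.5% and 5.47% of all genes, and 0 passed after adjustment. The other 9 did not pass, and the median log2 fold change was -0.03. When 1 library was dropped at a time, *Mmp27* passed the unadjusted threshold in 4 of 4 fits, *Mmp19* in 3, *Mmp11* in 2 and *Mmp8* in 1. *Mmp19*, which is expressed in the epidermis, had 7.56 and 9.11 FPKM in Cont-IMQ skin, compared with 12.2 and 13.3 FPKM in 7KC-IMQ skin (log2 fold change 0.56, standard error 0.12, limma adjusted p = 0.354). *Mmp8*, the collagenase of neutrophils, had 0.346 and 0.816 FPKM against 1.08 and 1.49 FPKM, from an estimated 12, 27, 39 and 50 reads. Its ratio of means was 2.21, and it was 3.71 without Cont-IMQ replicate 2, with only the 12 reads of Cont-IMQ replicate 1 as the control. *Mmp27*, another neighbor on chromosome 9, had 9.995 and 9.96 FPKM against 6.20 and 5.36 FPKM, a log2 fold change of -0.70 (standard error 0.11, limma adjusted p = 0.352) that stayed between -0.79 and -0.61 with each library left out. *Mmp11* had 6.67 and 9.48 FPKM against 3.79 and 5.31 FPKM. *Timp4*, the most abundant gene of this list, had 8.87 and 13.7 FPKM against 14.7 and 11.2 FPKM, and the groups overlapped. *Mmp7* and *Mmp21* were listed at 0 in all 4 libraries.
Among 12 activators and other inhibitors of MMPs, 11 were tested, 2 were higher (*Plaur* and *Furin*) and 0 were lower at an unadjusted p-value under 0.05, against 7.5% and 5.47% of all genes, with 0 after adjustment. *Plaur* passed in 4 of 4 fits with a library dropped and *Furin* in 1. *Plaur*, the receptor that holds urokinase at the cell surface, had 10.6 and 9.17 FPKM in Cont-IMQ skin, compared with 19.4 and 16.9 FPKM in 7KC-IMQ skin (log2 fold change 0.82, standard error 0.12, limma adjusted p = 0.343). *Furin*, the protease that cleaves proMMP14, had 44.8 and 45.8 FPKM against 51.7 and 58.0 FPKM. *Bsg*, an inducer of MMPs on the cell surface, overlapped at 251 and 262 FPKM against 251 and 286 FPKM.

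Markers of cell types that make these proteins were read beside them, to be set against the 23.9% higher and 22.9% lower without overlap among all genes. Of 10 fibroblast markers, 2 were higher and 1 lower without overlap, with a summed level of 3629 and 2686 FPKM in Cont-IMQ skin, compared with 3430 and 3039 FPKM in 7KC-IMQ skin, and none was at 0. The 4 stressed keratinocyte markers were all higher without overlap, at a summed level of 3220 and 3799 FPKM against 5250 and 8698 FPKM. Of 8 neutrophil markers tested, 6 were higher and 1 lower without overlap, at a summed level of 2580 and 2126 FPKM against 7224 and 13818 FPKM. Nearly all of that sum was *S100a8* and *S100a9*, which keratinocytes express as well. *Cxcr2*, a chemokine receptor of neutrophils, had 13.4 and 15.05 FPKM against 20.2 and 23.03 FPKM, *Csf3r* had 3.80 and 3.64 FPKM against 3.93 and 4.50 FPKM, and *Retnlg* had 0.821 and 1.66 FPKM against 3.38 and 2.00 FPKM. *Mmp8*, described above, was also among the higher ones, and *Mmp9* was the lower one. *Elane* and *Mpo*, granule genes transcribed mainly in precursors, were low. *Elane* overlapped, at 0.183 and 0.740 FPKM against 0 and 0.279 FPKM. *Mpo*, at no more than 0.0562 FPKM in any library, was not tested. *Ly6g*, also on the list, was not among the gene symbols. Of 6 endothelial markers, 1 was higher and 4 were lower without overlap. The part of these cell types in the differences of *Timp1*, *Mmp3* and *Mmp13* was not tested.

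**Figure D5:**
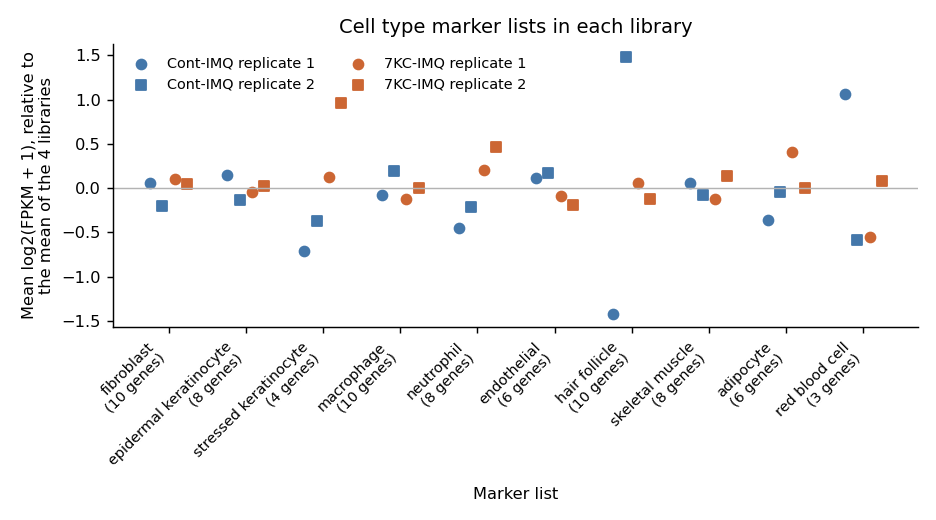
Mean log2(FPKM + 1) of 10 cell type marker lists in each library, relative to the mean of the 4 libraries, with blue for Cont-IMQ, orange for 7KC-IMQ, circles for replicate 1 and squares for replicate 2. The hair follicle list places the Cont-IMQ libraries farthest apart, at -1.43 and 1.48, while the stressed keratinocyte and neutrophil lists are higher in both 7KC-IMQ libraries.

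The genes whose pattern over the 4 libraries was most like that of *Timp1* were sought among 13102 others with a mean of at least 1 FPKM, by the root mean square difference of log2(FPKM + 1) centered on each gene's mean. The 5 closest were *Pglyrp1* (0.0868), *Prss22* (0.0940), *Defb14* (0.0971), *Slpi* (0.0995) and *Cpxm1* (0.156). *Pglyrp1* encodes a peptidoglycan recognition protein of granulocytes and epithelia, and had 4.02 and 3.36 FPKM in Cont-IMQ skin, compared with 11.0 and 11.0 FPKM in 7KC-IMQ skin. *Slpi*, a secreted inhibitor of neutrophil elastase, had 105 and 85.0 FPKM against 201 and 242 FPKM. *Defb14* encodes a beta-defensin, and had 51.3 and 40.1 FPKM against 93.3 and 109 FPKM. The likeness is a description over 4 libraries.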

How the data were processed

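RNA sequencing of dorsal skin was analysed in 4 libraries, grouped by the sample labels (Cont-IMQ and 7KC-IMQ, 2 each). Single-end reads of 75 bases were mapped by the authors to mm10, and they deposited one FPKM per gene symbol and library. The submitters' processing notes name TopHat2 2.1.1, Bowtie2 2.2.8, SAMtools 0.1.18 and Cuffdiff 2.2.1, whereas the paper names Cufflinks and other versions. How strand and multiply mapped reads were handled is not given in the sources used here. The median ratio factors of the 4 libraries were all 1.00, so the values were already on a common scale.

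From the deposited FPKM, log2(FPKM + 1) was computed. The 15896 genes whose mean FPKM reached 0.1 were compared with limma 3.58.1 (R 4.3.3, functions lmFit and eBayes, variance trend on) and Benjamini-Hochberg adjustment over all genes tested, and the procedure was tested on simulated data. Because of the pseudocount, fold changes of low genes are understated. No count model was used. Coordinates and shared 75-base windows came from GENCODE M21 (GRCm38), which holds 23318 of the 24346 symbols, and promoters from RefSeq (GRCm38.p6). Promoters of 9 of the 10 genes were found. Depth was the number of mapped reads that brought the low values of genes with 1 transcript nearest to whole reads, taking 200 bases off the transcript length. Between 73.1% and 75.7% of these values were within 0.1 of a whole number, against 20% by chance. Reads were estimated for genes with 1 annotated transcript only, and intervals cover counting error only.

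The genes and lists were chosen with earlier results of these data known. Genes of the pathway lists were named if they had an unadjusted p-value under 0.05 or were among the 2 most abundant of a list. *Mmp1a*, *Mmp7*, *Mmp9*, *Mmp21*, the collagen genes, *Cxcr2*, *Csf3r*, *Retnlg*, *S100a8*, *S100a9*, *Elane* and *Mpo* and the ratios within a library were named after their values were seen. The alternatives were to leave out each library, to block on the replicate number, to switch off the variance trend, to scale by median ratios or quantiles, to set the pseudocount to 0.1, and to raise the filter to 1 FPKM or drop it.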

Additional observations from a re-analysis of the deposited data

How the results depend on the processing

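None of the 9 genes passed an adjusted p-value of 0.05 in limma under any alternative, where the adjusted p-values of *Timp1* ranged from 0.0868 to 0.969. Of the recomputed fold changes of the 9 genes, 94 kept their direction and 4 turned. With 1 library dropped at a time, *Mmp2* ranged from -0.12 to 0.39 and *Mmp14* from -0.087 to 0.23, and *Mmp14* was -0.022 after quantile normalization. The same alternatives were run for the pathway genes named by rule, *Mmp9* and the 5 genes most like *Timp1*. Further genes named, such as the collagen genes and *Cxcr2*, were not refitted. Of the values refitted, 224 kept their direction and 6 turned, all in genes whose groups overlap. They were *Adam17* (-0.013 after quantile normalization, -0.013 to 0.071 with a library dropped), *Timp4* (-0.085 to 0.49), *Junb* (-0.28 to 0.19) and *Bsg* (-0.032 to 0.16). With a pseudocount of 0.1, 2 genes passed the adjusted threshold in place of 1, and between 1 and 11 did with each library left out. Genes at an unadjusted p-value under 0.05 numbered 339 to 1196 higher and 280 to 1149 lower with each library left out, against 1192 and 869, and the counts without a 7KC-IMQ library were the low ones. The summed TIMP level (log2 ratio -0.02) moved to 0.25 as a mean of log2(FPKM + 1), a different measure in which the 3 genes count equally. In it *Timp1* (log2 fold change 1.25) weighs as much as the more abundant *Timp2* (-0.20) and *Timp3* (-0.30). With each library left out, the log2 ratio of the summed TIMP level ranged from -0.13 to 0.091, and the cause of this was not tested. The summed MMP level (log2 ratio 0.26) ranged from 0.04 without Cont-IMQ replicate 2 to 0.52 without Cont-IMQ replicate 1. As a mean of log2(FPKM + 1) it was 0.41. With the replicate number as a block, 4 of the 9 genes had an unadjusted p-value under 0.05, with *Mmp12* joining, and no adjusted call changed. The blocked adjusted p-value of *Timp1* was 0.394. Same-numbered libraries shared little (correlation of deviations across genes 0.065), and the labels tie no litter or day to a number. With 2 libraries a group, the spread rests on few values, and levels near the 3 reads taken as the floor (*Mmp1b* and *Mmp10*) cannot be compared.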

Other observations

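ADAM and ADAMTS proteases, relatives of the MMPs of which several are inhibited by TIMP3, were listed as 7 genes. Of these, 3 were higher (*Adamts4*, *Adamts5* and *Adamts9*) and 0 were lower by limma with unadjusted p-values under 0.05, against 7.5% and 5.47% of all genes, 0 passed after adjustment, and the median log2 fold change was 0.30. When 1 library was dropped at a time, *Adamts9* passed the unadjusted threshold in 3 of 4 fits, *Adamts4* in 2 and *Adamts5* in 1. *Adamts4*, an aggrecanase, had 1.89 and 5.11 FPKM in Cont-IMQ skin, compared with 7.82 and 8.70 FPKM in 7KC-IMQ skin (log2 fold change 1.14, standard error 0.37, limma adjusted p = 0.365), and dropping 1 library at a time gave 0.60 to 1.68. *Adamts9* had 1.94 and 2.22 FPKM against 3.56 and 3.31 FPKM, and its fold change stayed between 0.46 and 0.59. *Adamts5*, the other aggrecanase, had 6.21 and 6.78 FPKM against 7.87 and 8.59 FPKM. *Adamts1* overlapped, at 25.04 and 45.9 FPKM against 42.9 and 56.8 FPKM. *Adam17*, the protease that releases TNF from the cell surface, had 30.7 and 28.9 FPKM against 29.6 and 31.2 FPKM, and the groups overlapped.

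The subunits of AP-1 were read beside the MMP genes of chromosome 9. Of 7 genes, 0 were higher and 1 was lower by limma with unadjusted p-values under 0.05, against 7.5% and 5.47% of all genes, with 0 after adjustment and a median log2 fold change of -0.12. Without overlap, 1 of the 7 was higher and 1 lower, against 23.9% and 22.9% of all genes. The lower one was *Fos*. The higher one is not among the subunits named here, which were picked by the rule for the pathway lists. In 5 of the 7, 7KC-IMQ replicate 1 was the lowest library. The mean log2(FPKM + 1) of the list, relative to the mean of the 4 libraries, was -0.06 and 0.53 in Cont-IMQ skin, compared with -0.79 and 0.32 in 7KC-IMQ skin. With a library dropped, the log2 fold change of *Fos* ranged from -2.41 to -0.91. *Fos* had 496 and 546 FPKM in Cont-IMQ skin, compared with 97.4 and 277 FPKM in 7KC-IMQ skin (log2 fold change -1.66, standard error 0.50, limma adjusted p = 0.360), and its 7KC-IMQ libraries stood far apart from each other. *Junb* overlapped, at 492 and 508 FPKM against 411 and 571 FPKM. No protein was measured.

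*Mmp9* (gelatinase B), which is also on the neutrophil list, was lower without overlap, at 1.94 and 3.97 FPKM in Cont-IMQ skin, compared with 1.86 and 1.55 FPKM in 7KC-IMQ skin. Cont-IMQ replicate 1 was close to the 7KC-IMQ libraries, and the log2 fold change of -0.50 (limma adjusted p = 0.507) was -0.12 without Cont-IMQ replicate 2. Among the lists not described above, 2 of 8 epidermal keratinocyte markers were higher and 1 lower without overlap, against 23.9% and 22.9% of all genes, as were 2 and 4 of 8 skeletal muscle markers, 2 and 0 of 6 adipocyte markers, 0 and 1 of 3 red blood cell markers, and 0 and 0 of 10 hair follicle markers.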
